A study of Chlamydomonas reinhardtii with 3 samples.

Results

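The mating type locus neighbourhood was taken as a block of gene entries on chromosome 6 of the green alga Chlamydomonas reinhardtii. Its members were the entries from Cre06.g251400 to Cre06.g255500 with a methylation level in both genotypes. The rule used locus identifiers and no measured value. It gave 104 genes of 17326 with both levels, and all 104 entries in the range had both. The other 1465 chromosome 6 genes with both levels served for comparison.

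Cells of strain CC125 were either wild type or carried a knockout of CMD1 (cmd1 KO), a TET homolog that modifies methylated cytosine in DNA. Both genotypes were grown at 25 °C under 20 μmol photons per square metre and second, then moved to minimal (high salt) medium and exposed to high light of 300 μE, so no group stands for low light. Whole-genome bisulfite sequencing, in which unmethylated cytosine is converted and methylated cytosine is not, was done on 1 wild type library and 2 cmd1 KO libraries. The labels do not say how the knockout was made or whether it is 1 clone. The 2 cmd1 KO libraries share 1 deposited value per gene, so each gene has 1 value per genotype, no difference has a replicate check, and none was tested here.

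The mating type locus of C. reinhardtii lies on chromosome 6. It is a stretch in which the plus and minus mating types carry rearranged versions that rarely recombine. It holds genes with roles in mating, such as FUS1 of the plus type and MID of the minus type. Neighbouring genes with ordinary cellular roles are inherited together with it. Nuclear DNA methylation in this alga is sparse over most genes and dense at some repeats. CC125 is a standard laboratory strain of the plus mating type. Neither the deposited table nor the reference table marks the locus, so the name of the block rests on the identifier range. The reference gave 0 of the 104 members a symbol of their own. Members are therefore given by locus identifier with no role, and FUS1 was not matched to one of them.

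The neighbourhood as a whole had the sparse methylation of the rest of the chromosome. The median wild type level of its 104 genes was 1.07% (quartiles 0.855% and 1.40%), beside 1.04% in the other 1465 chromosome 6 genes and 1.05% in all genes. In cmd1 KO the median was 5.65% (quartiles 4.77% and 6.81%), beside 5.85% in the other chromosome 6 genes and 5.89% in all genes. These levels are the authors' means over the sites listed for a gene. They rested on a median of 83 listed sites per member in wild type, from 14 to 218, and 26 in cmd1 KO, from 6 to 104. The read depth behind a level is unknown, so no interval can be given for it.

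The deposited level was higher in cmd1 KO in 103 of the 104 members, against 99.1% of all genes. The median difference was 4.51 percentage points (quartiles 3.75 and 5.44), and it was 4.73 points in the other chromosome 6 genes and in all genes. The neighbourhood's median thus stood 0.21 points below that of the rest of the chromosome, a gap that was not tested. Levels of the genotypes average site lists of unlike length, with medians of 83 and 26 per member, which touches every difference given here. The wild type mean was lower than distinct levels in steps of 0.001 could give in 93 of the 104 members. That share was 89.4%, beside 91.3% of all genes, so those lists held repeated levels. The same held for 0 of the cmd1 KO means, where lists were shorter and no member's level was under 3.77%. The lowest mean of distinct levels falls with fewer sites, so this 0 was nearly fixed beforehand. It cannot show whether the cmd1 KO lists held repeated levels. The part of the unlike lists in the differences was not tested beyond the denominators given below.

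**Figure D1:**
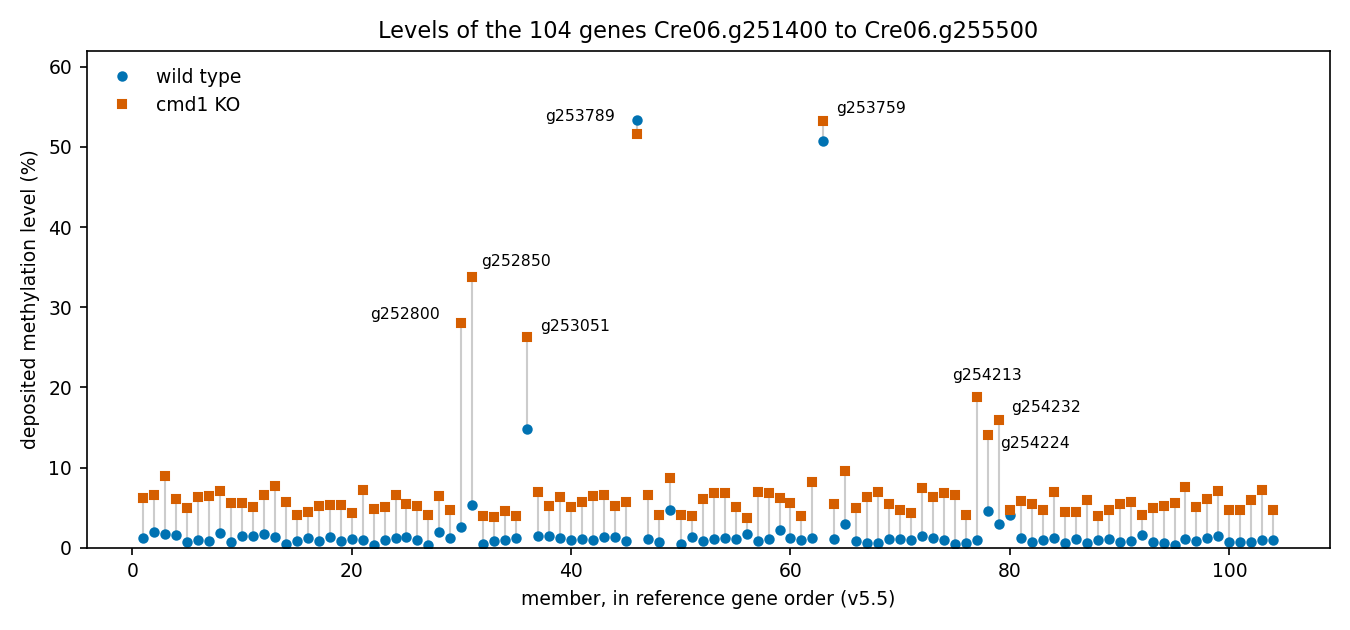
Deposited methylation level in percent of each of the 104 members in wild type (circles) and cmd1 KO (squares), in the gene order of the v5.5 reference, with a line joining both values of a gene. Most squares lie between 4% and 9% and most circles near 1%, and the labelled genes lie higher.

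Few members stood apart from this low level. In wild type 3 of the 104 stood at 10% or more, a share of 2.88%, beside 2.59% of the other chromosome 6 genes and 3.48% of all genes. A cmd1 KO level higher by at least 10 points was found in 5 of the 104 members, 4.81%. That size was reached by 3.50% of all genes and by 48 of the other chromosome 6 genes (3.28%). No member was lower by 10 points, as 0.0923% of all genes were. The neighbourhood's counts were thus near those of the genome. At the size of 10 points, Cre06.g253051 lay just inside at 11.4 points and Cre06.g254224 just outside at 9.42 points.

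Cre06.g252800 and Cre06.g252850, which follow each other in the reference order, showed the largest differences of the neighbourhood. Cre06.g252850 had a level of 5.40% in wild type (25 listed sites) and of 33.8% in cmd1 KO (24 listed sites), 28.4 points higher. Cre06.g252800 had a level of 2.66% in wild type (47 listed sites) and of 28.0% in cmd1 KO (32 listed sites), 25.4 points higher. As deposited, these are the largest and the second largest of the 1569 differences on chromosome 6, where the other chromosome 6 genes reached 21.8 points. Over all 17326 genes they ranked 13th and 20th. The genes on either side did not share these levels. Cre06.g252750, on the lower side, stood at 1.26% and 4.72%, and Cre06.g252871, on the upper side, stood at 0.53% and 4.03%.

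Both genes kept a higher cmd1 KO level under stricter denominators. For this, the summed levels of cmd1 KO were taken over as many sites as wild type lists, if those are more, and missing sites count as 0. Cre06.g252850 then stood at 32.5%, 27.1 points above wild type, because both columns listed nearly the same number of sites. Cre06.g252800 then stood at 19.1%, 16.4 points above wild type. With 1.52 times the wild type site number, the median site ratio of 150 genes whose wild type level is at least 40%, the levels were 21.3% and 12.5% and the differences 15.9 and 9.89 points. Among the chromosome 6 genes Cre06.g252850 ranked 1st under both, and Cre06.g252800 ranked 3rd and 2nd. Both rest on fewer wild type sites than the median member. Over the whole block, 94 of the 104 members remained higher with the first denominator (92.1% of all genes did) and 53 with the second (62.9%). Differences of at least 10 points were then left in 2 members (1.07% of all genes) and in 1 (0.439%), with 0 members lower by that size (0.121% and 0.265%).

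**Figure D2:**
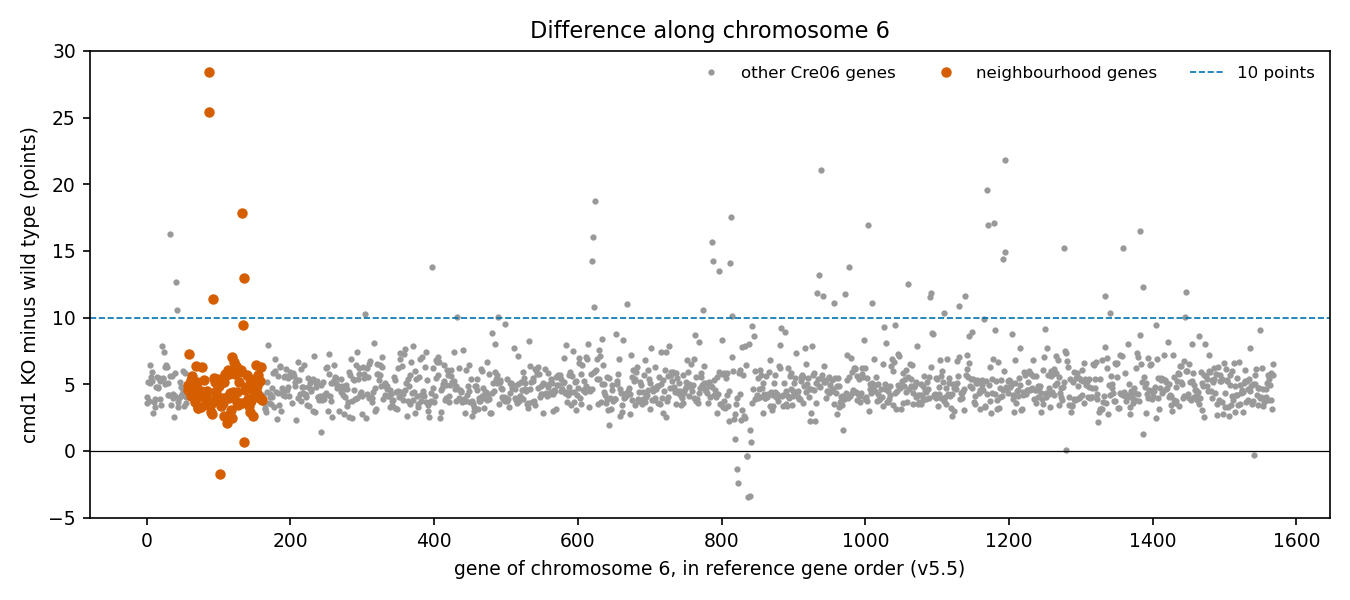
Difference of the deposited levels, cmd1 KO minus wild type, in percentage points for each chromosome 6 gene in the order of the v5.5 reference, with neighbourhood genes in orange and a dashed line at 10 points. Cre06.g252850 and Cre06.g252800 lie at 28.4 and 25.4 points, above the highest grey point at 21.8.

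Further along the block, Cre06.g254213, Cre06.g254224 and Cre06.g254232 follow each other in the reference order and had intermediate cmd1 KO levels. Cre06.g254224 was under 10 points, at 9.42, and was added after its value was seen. How often such runs occur elsewhere on the chromosome was not counted. Cre06.g254213 had a level of 0.99% in wild type (66 listed sites) and of 18.8% in cmd1 KO (29 listed sites), 17.8 points higher. Cre06.g254224 had a level of 4.65% in wild type (26 listed sites) and of 14.1% in cmd1 KO (21 listed sites). Cre06.g254232 had a level of 2.93% in wild type (110 listed sites) and of 15.9% in cmd1 KO (49 listed sites), 13.0 points higher. The next gene, Cre06.g254240, had a comparable wild type level of 4.07% over 18 sites but stood at only 4.70% over 24 sites in cmd1 KO. The gene before them, Cre06.g254200, stood at 0.55% and 4.14%. With the wild type site number as denominator, the differences of Cre06.g254213, Cre06.g254224 and Cre06.g254232 were 7.28, 6.71 and 4.16 points. With 1.52 times that number they were 4.45, 2.82 and 1.73 points, so all 3 stayed above wild type but under 10 points.

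**Figure D3:**
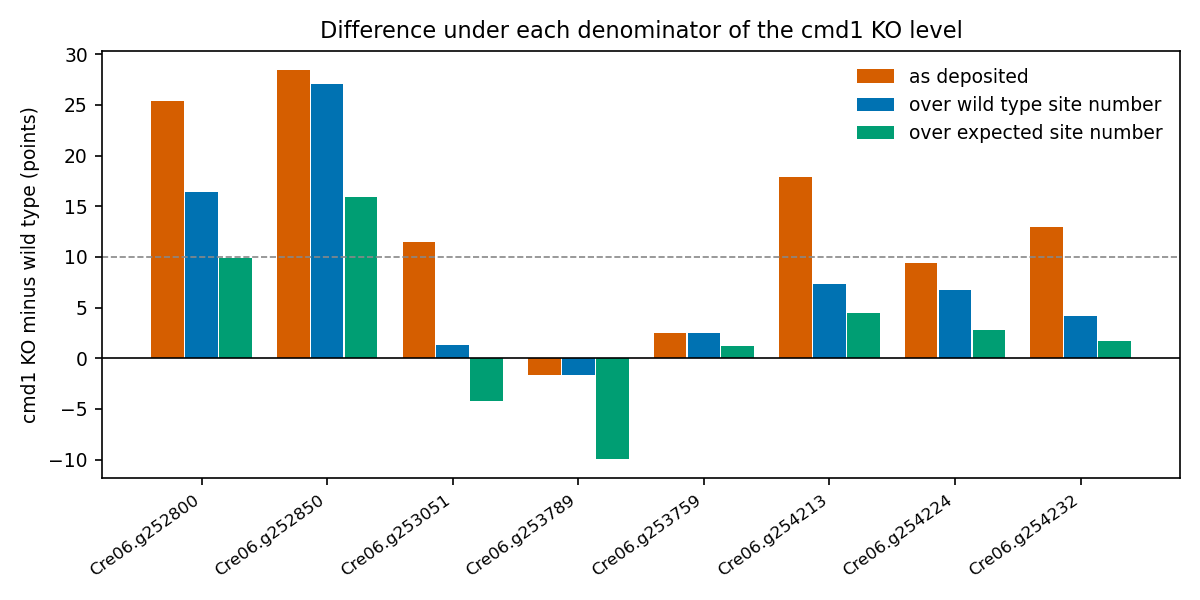
Difference between cmd1 KO and wild type in percentage points for 8 members, as deposited (orange) and with the cmd1 KO sum taken over the site number of wild type (blue) or 1.52 times it (green), where larger. A dashed line marks 10 points, and Cre06.g252850 stays above it under all 3.

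In 2 members the deposited level was above 50% in both genotypes. Cre06.g253789 had a level of 53.3% in wild type (79 listed sites) and of 51.6% in cmd1 KO (101 listed sites), and was the 1 member whose deposited level was lower in cmd1 KO. Cre06.g253759 had a level of 50.7% in wild type (70 listed sites) and of 53.2% in cmd1 KO (104 listed sites). These differences of -1.70 and 2.47 points were smaller than the median difference of the neighbourhood. Their wild type levels exceeded those of 99.6% and 99.5% of genes. The locus numbers of Cre06.g253759 and Cre06.g253789 follow each other, but in the reference order other members lie between them. Of the other chromosome 6 genes, 16 stood at 40% or more in wild type. With Cre06.g253051, 2 of the 3 members at 10% or more in wild type were higher in cmd1 KO, beside 31 of 38 such genes on the rest of the chromosome (81.6%) and 74.6% of such genes in all.

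Cre06.g253051 held an intermediate place, with a level of 14.9% in wild type (60 listed sites) and of 26.3% in cmd1 KO (37 listed sites). Its deposited difference of 11.4 points was 1.35 points with the wild type site number as denominator. With 1.52 times that number its cmd1 KO level was 10.7%, below wild type. Its neighbours Cre06.g253000 and Cre06.g253102 stood at 1.23% and 1.43% in wild type and at 3.98% and 6.93% in cmd1 KO.

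**Figure D4:**
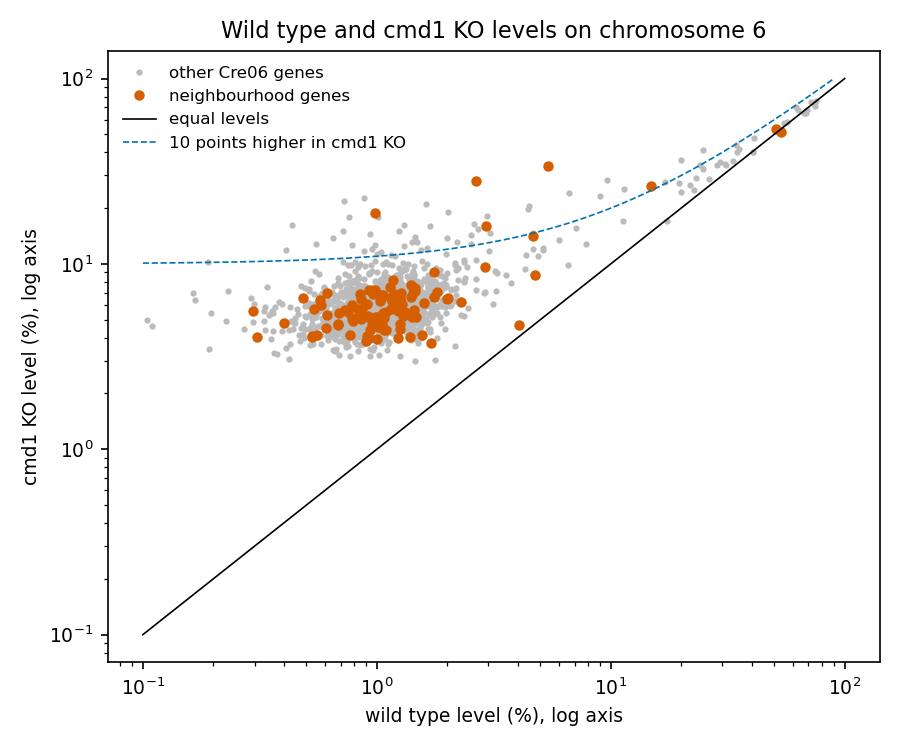
Wild type level against cmd1 KO level in percent, both on log axes, for the 104 neighbourhood genes (orange) and the other chromosome 6 genes (grey; 4 with a wild type level of 0 are left out). The solid line marks equal levels and the dashed line a level 10 points higher in cmd1 KO, beyond which 5 orange points lie.

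Most members showed the common low pattern with little variation. In 91 of the 104 the wild type level was under 2%, a share of 87.5% beside 90.6% of all genes. All 91 were higher in cmd1 KO, by 2.06 to 17.8 points with a median of 4.49, and so were 100% of all genes under 2%. The other chromosome 6 genes under 2% numbered 1367 and had a median difference of 4.70 points. The lowest wild type levels were 0.30% in Cre06.g255050, 0.31% in Cre06.g252700 and 0.40% in Cre06.g252450, with 5.58%, 4.05% and 4.79% in cmd1 KO. After Cre06.g254213, the largest differences among members under 2% were 7.25 points in Cre06.g251550 (1.76% and 9.01%) and 7.02 points in Cre06.g253758 (1.17% and 8.19%). The smallest were 2.06 points in Cre06.g253750 (1.70% and 3.77%), 2.58 in Cre06.g254800 (1.56% and 4.15%) and 2.63 in Cre06.g253800 (1.39% and 4.01%). The members at the ends of the range were of the common kind, with Cre06.g251400 at 1.25% and 6.20% and Cre06.g255500 at 0.97% and 4.77%.

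Along the block the level varied little apart from the genes named above. When the members were taken in reference order in 4 stretches of 26 genes, the median wild type level was 1.17%, 1.25%, 1.07% and 0.96%. The median difference of the same stretches was 4.51, 4.07, 5.41 and 4.63 points. Members at 10% or more in wild type numbered 0, 2, 1 and 0 in these stretches. Those higher by at least 10 points numbered 0, 3, 1 and 1. Of all genes, 3.48% stood at 10% or more in wild type and 3.50% were higher by at least 10 points. Neighbouring genes had nearly unrelated differences, with a Spearman's rho of -0.004 over 101 neighbour pairs of members and 0.05 over 1443 pairs on the rest of the chromosome. Both genes were higher by at least 10 points in 1 of the 101 pairs and in 8 of the 1443 pairs. These pairs share libraries, and the rho values are descriptions across genes.

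The 3 members at 10% or more in wild type carried locus identifiers of the less common kind. Of the 104 identifiers, 62 carry a number that is a multiple of 50 and 42 carry another number. All 3 were among the 42, as were 36 of the 38 such genes on the rest of the chromosome. Over all genes, 481 of the 603 at 10% or more in wild type had such other numbers. Of all 17326 genes, 5520 had them. The 5 members higher by at least 10 points were split, with Cre06.g252800 and Cre06.g252850 among the 62 and the other 3 among the 42. Over all genes, that size was reached by 2.73% of those with multiples of 50 and 5.16% of those with other numbers. In reference order 24 members stood at another place than in identifier order, and 3 pairs of neighbours overlapped there. One overlapping pair was Cre06.g253758 and Cre06.g253759, with wild type levels of 1.17% and 50.7%.

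The p of the authors' deposited table, adjusted by the Benjamini-Hochberg method over 17326 genes, was under 0.05 in 101 of the 104 members, all higher in cmd1 KO. That call was made in 97.6% of all genes as higher and in 0.242% as lower. No source used here names the test behind this p, and with 1 value per genotype it has no replicate check. The 3 members that missed it in the authors' deposited table were Cre06.g253759 (adjusted p = 0.389), Cre06.g253789 (adjusted p = 0.782) and Cre06.g254240 (adjusted p = 0.317). For Cre06.g252850 and Cre06.g252800 the authors' deposited table gave adjusted p-values of 4.69e-06 and 1.14e-08.

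Numbers of listed sites were lower in cmd1 KO for most members. Sites in cmd1 KO per site in wild type had a median of 0.30 in the members and 0.31 on the rest of the chromosome. It was 0.29 in members under 2% in wild type. Cre06.g252850 stood at 0.96 and Cre06.g252800 at 0.68, while Cre06.g254213 and Cre06.g254232 stood at 0.44 and 0.45, below some members of the common kind such as Cre06.g251800 at 0.58. Across the 104 members the wild type level and the site ratio had a Spearman's rho of 0.49, as a description over genes of the same libraries. The part of the site numbers in the levels was not tested beyond the denominators above.

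**Figure D5:**
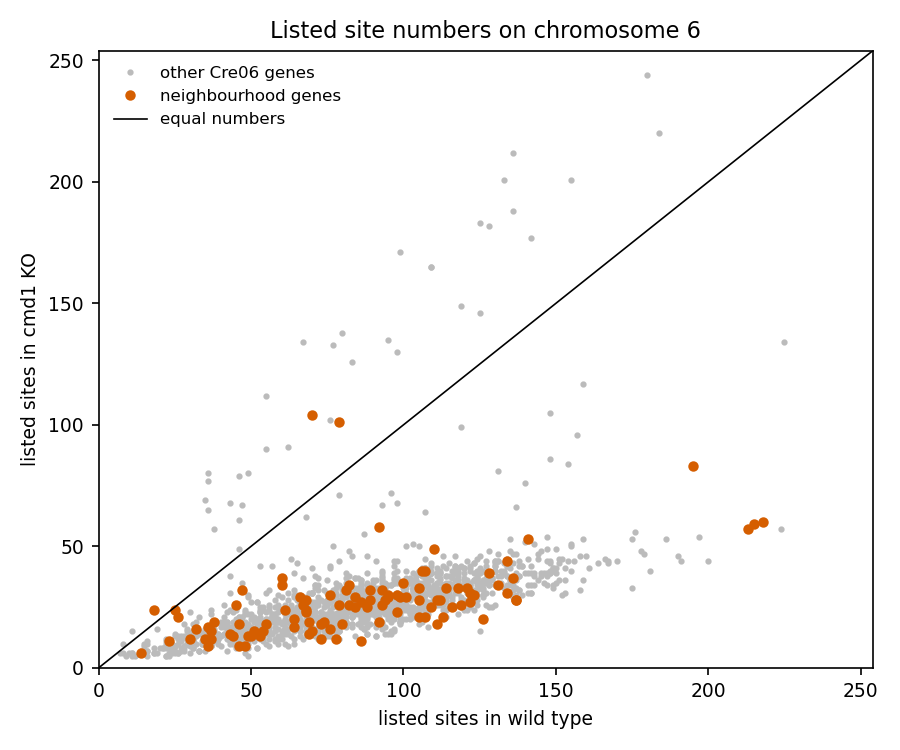
Number of sites listed per gene in wild type and in cmd1 KO for the 104 neighbourhood genes (orange) and the other chromosome 6 genes (grey), with a line at equal numbers. Most genes lie well below the line, and Cre06.g253759, Cre06.g253789 and Cre06.g254240 lie above it.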

How the data were processed

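Methylation was measured by whole-genome bisulfite sequencing in 3 libraries. The tools named, per the submitters' processing notes, are Trimmomatic 0.36, BSMAP and FastQC 0.11.5. For the build, annotation, contexts, coverage minimum and gene region nothing is given in the sources used here. The deposited table holds, per the file headers, numbers of sites and a mean methylation level per genotype, a fraction printed here as percent. It also holds the authors' difference, fold ratio and unadjusted p-value, with the test not given. Of 17527 entries, 201 without levels were left out, none in the identifier range. Level times site number was a whole multiple of 0.001 in every member, within 0.0001 of a step.

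Entries were matched by locus identifier to the RefSeq table of assembly Chlamydomonas_reinhardtii_v5.5 (17525 matched). Because the deposited table names no build, this gave gene order and overlaps only. Its symbols are the locus identifiers. It lists 106 genes in the range, and 2 of them are not analysed here. With 1 value per genotype no test over samples was made; genes are not replicates. Medians and counts past 10 points were computed with Python 3.11.15, pandas 2.3.3 and scipy 1.17.1, and the counts and Benjamini-Hochberg adjustment were tested on simulated data. Members and gene lists were chosen with earlier results of these data known. Named genes were those at 10% or more in wild type, those differing by at least 10 points, the 3 lowest in wild type, the 3 largest and smallest differences under 2%, the ends of the range, genes annotated for mating (none) and runs of 3 neighbours at 5% or more in wild type (none). Direct neighbours of these, Cre06.g254224 and Cre06.g254240 were added after their values were seen. Because the reference gave members no symbol of their own, the search for mating genes cannot tell whether the block holds any. Alternatives changed the size counted, site minimum, denominator, centring, summary, comparison genes, extent of the block and gene models.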

Additional observations from a re-analysis of the deposited data

Results flagged for a closer look

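The site number was higher in cmd1 KO than in wild type in 3 of the 104 members, against 3.46% of all genes. Cre06.g253759 had 104 listed sites in cmd1 KO and 70 in wild type. Cre06.g253789 had 101 and 79, and Cre06.g254240 had 24 and 18. These are also the 3 members that missed the adjusted threshold in the authors' deposited table. Groups held too few libraries to look for a library far from the others.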

How the results depend on the processing

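No paired analysis was possible because the cmd1 KO libraries share 1 column, and for the same reason no replicate could be left out. Counting differences of at least 5 points gave 39 members higher (41.7% of all genes), and at least 20 points gave 2 (0.404%). With the wild type site number as denominator, the median difference was 0.60 points, 90.4% of members were higher (92.1% of all genes), 2 by at least 10 points (1.07%), and the gap to the other chromosome 6 genes was -0.13 points. With 1.52 times that number these were 0.017 points, 51.0% (62.9%), 1 (0.439%) and -0.10 points. Both count missing sites as 0 and so lower cmd1 KO levels by construction. With each column centred on the common median, the median difference was -0.32 points, 42.3% were higher (46.8% of all genes) and 3 by at least 10 points (1.20%); centring removes the shift of 4.83 points between the columns. As means over genes, the wild type level was 2.37%, beside 2.12% in the other chromosome 6 genes. The gap was then 0.10 points, of the other sign than the gap of medians at -0.21 points. Without genes at 10% or more in wild type, 100% of members were higher. With identifiers that are multiples of 50 only, 100% were higher (99.7% of all such genes), 2 by at least 10 points (2.73%), the gap was -0.36 points and 0 members stood at 10% in wild type (1.03%). No member was lower by 10 points under the site minimum, denominators, centring, inner block or identifier choice. Cre06.g253789 came closest, at -9.94 points with 1.52 times the wild type site number. Leaving out the 5 members higher by 10 points, chosen after seeing the data, gave a median difference of 4.42 points. Of 54 alternative values, 34 stayed within a factor of 1.5, or, for the share of members higher, within its exact 95% interval. That interval treats genes as independent draws, so it served only as a yardstick and measures no spread between libraries. Of the rest, 19 were counted as moved and 1 as reversed, the median difference after centring. A gap that changed sign was counted as moved.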

Other observations

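Some members had unusually many listed wild type sites. At least 190 sites, a number chosen after the values were seen, were listed for 4 of the 104 members (3.85%), against 6 of the other 1465 chromosome 6 genes (0.41%) and 40 of all 17326 genes (0.231%). They were Cre06.g253851 with 218, Cre06.g253900 with 215, Cre06.g254002 with 213 and Cre06.g253566 with 195. The cmd1 KO numbers were 60, 59, 57 and 83. Cre06.g253851, Cre06.g253900 and Cre06.g254002 had levels near the middle of the neighbourhood, at 1.07%, 1.15% and 1.10% in wild type and 6.81%, 6.55% and 5.52% in cmd1 KO. Cre06.g253566 stood at 2.91% and 9.58%. The neighbourhood as a whole did not list more wild type sites than the rest of the chromosome. Its median was 83 and its upper quartile 109, beside 86 and 109 in the other chromosome 6 genes. The largest number there was 225.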
